A study of Homo sapiens with 120 samples.

Results

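The comparison described here set TK6 cells treated with 320 µM methyl methanesulfonate (MMS) for 24 h directly against TK6 cells treated with 80 µM MMS for 24 h, across all genes. Its 6 arrays, 3 for each dose, were chosen by their titles out of 120 arrays in the series. TK6 is an established human B-lymphoblastoid line, and every group was made with this single line. For reference the account uses 3 arrays of cells given 160 µM MMS and 3 of untreated cells at 24 h, the MMS arrays of 320 and 80 µM at 4 h, and the arrays of ethyl methanesulfonate (EMS), the ethyl homologue of MMS, at 4 and 1 mM for 24 h (3 per group). Total RNA was measured on Affymetrix 3'-biased expression arrays. The labels number the arrays of a group as experiments 1 to 3 without saying whether these were separate cultures. Each gene's p-value therefore sets a difference against the spread between numbered experiments within groups. For the MMS doses that spread was estimated over all 24 MMS arrays, not from the 6 arrays alone. The question was which responses were already full at the low dose and which appeared only at the high dose.

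MMS methylates DNA bases, mainly the ring nitrogens of guanine and adenine, and it also methylates the thiols and amines of proteins. N-methylated bases are removed by base excision repair, which starts with the glycosylase MPG, and O6-methylguanine is removed by the methyltransferase MGMT, which TK6 cells are known to lack. DNA damage that persists activates the tumour suppressor p53, which is wild type in TK6, whereas damaged or misfolded proteins switch on the heat shock response and the integrated stress response through ATF4.

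The signals are log2 values, and a difference of 1 is a 2-fold change. Each of 14023 tested genes was fitted with limma, and a gene was called at a Benjamini-Hochberg adjusted p under 0.05. Arrays of a single dose correlated at 0.995 to 0.998 over all genes, and arrays of 320 and 80 µM at 0.966 to 0.969. A measure of RNA quality moved with the dose: the signal at the 3' end of ACTB (beta-actin) minus that at its 5' end, from control probe sets, which grows when RNA is broken or copied short, was 1.96, 1.59 and 2.08 in the 320 µM arrays, against 1.01, 0.978 and 1.20 in the 80 µM arrays. The 2 doses did not overlap (mean difference 0.813, exact permutation p = 0.1, the smallest that 3 against 3 arrays can give), and the means were 1.28 at 160 µM and 0.942 in untreated cells. For GAPDH the same measure averaged 0.340 ± 0.0415 at 320 µM and 0.209 ± 0.00979 at 80 µM (SD, n = 3 each). Counts that changed by over 1.5 times when the ACTB measure was added to the model are given beside each group of genes. Markers of other cell types were tested too. Of 10 tested markers of T and NK cells 1 was lower at 320 µM and 0 higher, and the log2 of their summed signal was 9.89 to 10.1 in the 320 µM arrays, against 10.1 to 10.2 in the 80 µM arrays. Of 4 for monocytes and granulocytes 2 were lower and 0 higher, with sums of 9.20 to 9.28 at 320 µM and 9.34 to 9.38 at 80 µM. Of 8 for epithelium and fibroblasts 1 was higher and 2 lower, with 10.2 to 10.3 at 320 µM and 10.4 to 10.5 at 80 µM. Of 5 for red blood cells 2, the globin genes HBB and HBD, were lower and 0 higher, with 9.23 to 9.38 at 320 µM and 10.3 to 10.4 at 80 µM. At 320 µM 7 of 13 markers of T and NK cells on the array averaged at or above 6.183, the signal limit used to select genes for testing, and 7 at 80 µM. For monocytes and granulocytes these were 2 of 11 at 320 µM and 3 at 80 µM, for epithelium and fibroblasts 7 of 12 at 320 µM and 6 at 80 µM, and for red blood cells 3 of 6 at 320 µM and 4 at 80 µM. With the ACTB measure in the model 1 monocyte and 1 red blood cell marker were lower, and 0 epithelium and fibroblast markers were called. The part of the RNA measure and of these markers in the results was not tested. Of 20 B cell identity genes on the array, 15 averaged at or above this limit at 320 µM and 16 at 80 µM, and the log2 of their summed signal was 14.48 to 14.53 at 320 µM and 15.27 to 15.30 at 80 µM.

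At 320 µM, 3871 genes were higher than at 80 µM, which is 27.6% of those tested, and 3473 were lower, which is 24.8%. At least 2-fold differences were found for 460 genes that were higher (3.28%) and 264 that were lower (1.88%), and in all of these the 3 arrays of each dose did not overlap. Among the called genes of any size the arrays did not overlap for 3737 of the 3871 higher and 3352 of the 3473 lower. These genes were called from the same arrays, so the lack of overlap is largely fixed by that choice. It is a description and adds no support, and it was not counted over all tested genes. With the ACTB measure in the model 2192 were higher and 2150 lower, while 486 and 370 were at least 2-fold higher and lower. With the mean of a gene's probe sets in place of the brightest, 152 were at least 2-fold lower. The median difference over all tested genes was -0.01, and single genes ranged from -2.37 (ERICH3) to 5.65 (HSPA6).

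HSPA6, an inducible member of the HSP70 chaperone family that is close to silent in unstressed cells, had the largest increase. Its signal was 12.63, 12.79 and 12.77 in the 320 µM arrays, against 7.11, 6.91 and 7.23 in the 80 µM arrays (log2 difference 5.65 with SE 0.101, n = 3 per dose, limma adjusted p = 1.5e-19, 50.2-fold). The next largest increases were those of CYP4F2 (4.48), KRTAP19-1 (3.82), CYP4F3 (3.73), ZFAND2A (3.41), LCE1B (2.86), NBEAP1 (2.84), LOC389765 (2.83), GDF15 (2.82), EGR1 (2.72), KEL (2.58) and MAK (2.51). CYP4F2 and CYP4F3 encode near-identical fatty acid hydroxylases, so the array may not tell their RNAs apart and their separate values are uncertain. ERICH3 had the largest decrease, with 4.82, 4.49 and 4.53 in the 320 µM arrays, against 7.10, 7.16 and 6.68 in the 80 µM arrays (log2 difference -2.37 with SE 0.186, n = 3 per dose, limma adjusted p = 5.04e-10). It was followed by HBD (-2.32), a globin gene whose probes can also read other globins, WDR72 (-2.19), the hexokinase gene HK2 (-2.14), APELA (-2.14), CHL1 (-2.11), the plasma cell receptor gene TNFRSF17 (-2.04), C17orf99 (-1.94), ASMTL (-1.93), MIR210HG (-1.90), P2RY10 (-1.89) and SLC35F3 (-1.88). For SLC35F3 only 1 of 2 probe sets went this way. The ERICH3 values at 320 µM all lay under 6.183, the signal limit for testing, so the size of its fall is uncertain. Every gene named in this paragraph had 3 high-dose arrays on the same side of all 3 low-dose arrays, which their choice by size and call makes likely.

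To separate responses that were full at 80 µM from those that appeared above it, each gene was described by a first step, 80 µM minus untreated, and a second step, 320 minus 80 µM. A step was counted as made where it was called and at least 2-fold, and as absent where its 95% confidence interval lay inside ±0.5. Both steps use the 80 µM arrays, so an error in those arrays moves them in opposite directions, and the classes are a description. Of 752 genes that made at least 1 step, 56 made the first and 724 the second. The response appeared only above 80 µM for 285 genes that rose and 183 that fell. Both steps were made upward by 25 genes and downward by 0. Judged by 320 against 80 µM alone, 9 genes rose fully by 80 µM while 0 fell fully by it. Another 3 genes rose at 80 µM and then fell, and 247 fell in no class. The second step spans both doublings of dose, so "only above 80 µM" (named "only at 320 µM" in the plots) includes genes that had moved at 160 µM. The small classes depend on these limits: with the ACTB measure 2 genes were full at 80 µM and 269 fell only above it, and with the mean of probe sets 5 were full, 104 fell only above 80 µM and 13 rose in both steps. At the 2-fold limit the second step of INAFM1 was 1.001, just inside, and that of WHR1 was 0.9995, just outside.

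**Figure D1:**
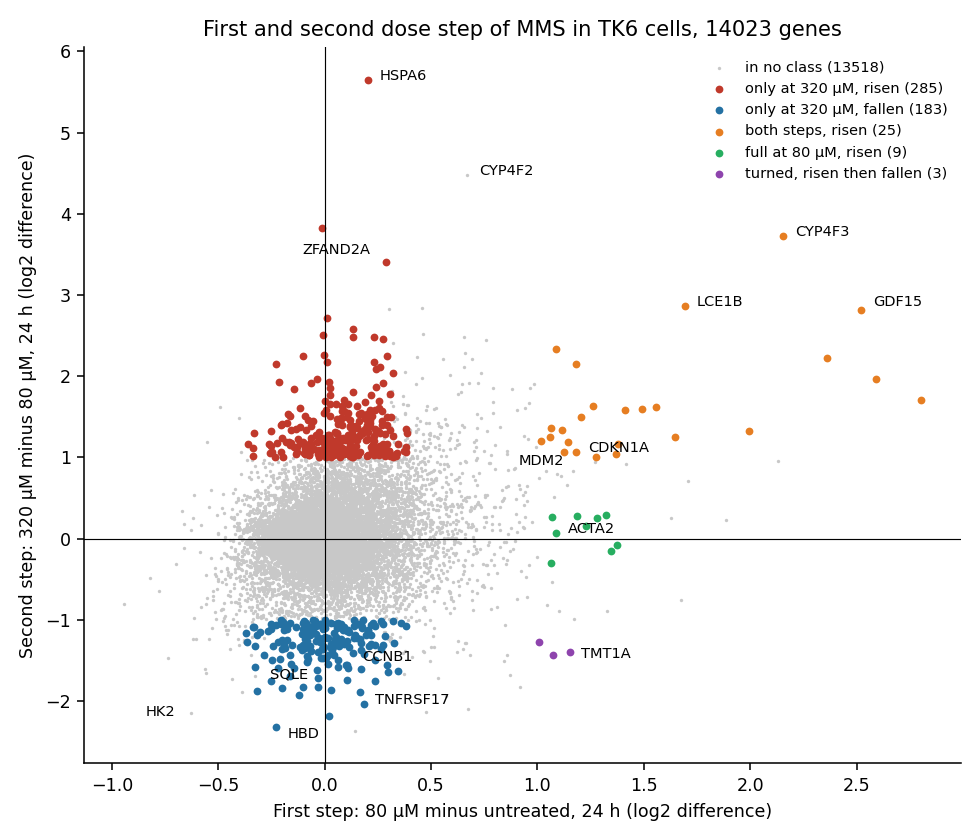
Each point is 1 of 14023 tested genes, with the first step (80 µM minus untreated) on the horizontal axis and the second step (320 minus 80 µM) on the vertical axis, both as log2 differences at 24 h, coloured by class. The 285 red and 183 blue genes stand above and below 0 on the vertical axis with little spread to the side, the 25 orange genes lie at the upper right, and the 9 green genes lie to the right near a second step of 0.

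The first step was small beside the second, but the second also covers a wider range of dose (80 to 320 µM). Whether the changes were proportional to dose was not tested. At 80 µM against untreated cells 2469 genes were higher (17.6% of those tested) and 1526 lower (10.9%), of which 56 rose and 0 fell at least 2-fold. At 320 µM against untreated cells 4313 genes were higher (30.8%) and 3884 lower (27.7%), with 795 and 334 at least 2-fold. In the 795 the median share of the 320 µM change that was present at 80 µM was 23.8% on the log2 scale (quartiles 11.5% and 36.6%), and at 160 µM it was 62.6%. In the 334 that fell it was 14.6% at 80 µM and 52.2% at 160 µM. Only 16 of the 795 and 0 of the 334 had over 75% of the change at 80 µM.

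Between the middle and low doses, 2127 genes were higher at 160 than at 80 µM (15.2%) and 2128 lower (15.2%). Between the high and middle doses, 3166 were higher at 320 than at 160 µM (22.6%) and 2437 lower (17.4%). At least 2-fold, 58 rose and 8 fell between 80 and 160 µM, and 62 rose and 52 fell between 160 and 320 µM. Without experiment 1 the number called between 160 and 80 µM was 2483 instead of 4255, and with the ACTB measure 3026 were called between 320 and 160 µM instead of 5603.

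The genes that were full at 80 µM were few. They are GBP3, an interferon-inducible GTPase, APOBEC3G, a cytidine deaminase that restricts retroviruses, ENC1, LINC01619, CARD16, an inhibitor of caspase-1, and ORAI3, a calcium channel subunit, then ACTA2 (smooth muscle actin), TRIM22 and UGT2B17, which are outside the rule for named genes and complete the class. APOBEC3G had 11.48, 11.42 and 11.50 in the 320 µM arrays, against 11.66, 11.62 and 11.58 in the 80 µM arrays and 10.24, 10.43 and 10.15 in untreated cells. The 320 µM arrays lay just under the 80 µM arrays without overlap, and both stood far above the untreated arrays. The second step of APOBEC3G was -0.16 ± 0.058 (adjusted p = 0.0292) after a first step of 1.35, and it lost its call without experiment 1 or 2, with the ACTB measure (-0.25) and with the mean of probe sets (-0.08). ENC1 had 10.20, 10.29 and 10.18 in the 320 µM arrays, against 9.92, 9.97 and 9.93 in the 80 µM arrays and 8.48, 8.74 and 8.63 in untreated cells, a first step of 1.32 and a second of 0.28. In the whole class the first step ranged from 1.06 (UGT2B17) to 1.37 (GBP3) and the second from -0.30 (UGT2B17) to 0.28 (ENC1), so small further changes up or down remain part of the class. In all 9 genes the mean was higher at 160 µM than at 320 µM, with differences from untreated cells at 160 µM between 0.96 (UGT2B17) and 2.01 (ENC1). The class median difference from untreated cells was 1.23 at 80 µM, 1.69 at 160 µM and 1.34 at 320 µM. The class was thus highest at the middle dose, and "full" compares 80 with 320 µM only.

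Allowing steps of any called size, 625 of the 2469 genes that were higher at 80 µM were not called between 320 and 80 µM, and for 612 of these the interval of the second step lay inside ±0.5. Another 1160 rose further and 684 turned down. Of the 1526 genes lower at 80 µM, 669 fell further, 398 turned up and 459 were not called, of which 457 lay inside the bound. Over all tested genes 27.6% were higher and 24.8% lower at 320 than at 80 µM, and the genes that turned were near these shares. Both steps use the 80 µM arrays, so an error in those arrays can also make a gene seem to turn. Against untreated cells 310 genes were called higher at 80 µM and called lower at 320 µM, and 182 did the reverse.

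More of the 724 genes with a second step lacked a first step than made one. It was absent for 285 that rose and 183 that fell, and made by 25 that rose again and 3 that then fell. Over all 14023 tested genes the first step was absent for 12425 and made by 56, so lacking it is not particular to these genes. Among the 285 that rose only above 80 µM the largest second steps were those of HSPA6, KRTAP19-1, ZFAND2A, EGR1, KEL, a blood group protein gene, and CDADC1, a cytidine deaminase domain gene. CDADC1 had 11.56, 11.39 and 11.64 in the 320 µM arrays, against 8.97, 9.11 and 8.99 in the 80 µM arrays and 8.93, 9.15 and 9.01 in untreated cells. The 80 µM and untreated arrays overlapped, and every 320 µM array was more than 2 log2 units above them (log2 difference 2.51 with SE 0.0761, n = 3 per dose, limma adjusted p = 2.75e-16). KEL had 8.98, 8.87 and 8.83 in the 320 µM arrays, against 6.30, 6.29 and 6.37 in the 80 µM arrays, with a first step of 0.13. Among the 183 that fell, HBD, WDR72, TNFRSF17, ASMTL, P2RY10 and SLC35F3 had the largest second steps. ASMTL had 10.60, 10.51 and 10.53 in the 320 µM arrays, against 12.49, 12.45 and 12.47 in the 80 µM arrays and 12.56, 12.59 and 12.62 in untreated cells, a clear fall at the high dose after a first step of -0.12. P2RY10, a lysophospholipid receptor gene of lymphocytes, had 8.45, 8.15 and 8.47 in the 320 µM arrays, against 10.26, 10.25 and 10.22 in the 80 µM arrays. WDR72 had 6.05, 6.26 and 5.99 in the 320 µM arrays, against 8.26, 8.40 and 8.20 in the 80 µM arrays, and in both of these genes the doses stood well apart. Of the WDR72 values at 320 µM, 6.05 and 5.99 lay under the signal limit of 6.183, so the size of its fall is uncertain. At 80, 160 and 320 µM the median difference from untreated cells was 0.09, 0.62 and 1.35 over the 285 genes and -0.01, -0.48 and -1.25 over the 183, values that the choice of class fixes in part.

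Counts for each gene list are to be read beside the shares over all tested genes. At 320 against 80 µM these were 27.6% higher and 24.8% lower, and at 80 µM against untreated cells 17.6% and 10.9%. They were 15.2% each way at 160 against 80 µM, and 22.6% and 17.4% at 320 against 160 µM. Most p53 targets rose in both steps, while TRIM22, also in this list, is in the class that was full at 80 µM. Of 36 tested genes 33 were higher at 320 than at 80 µM and 0 lower (median 0.98, against -0.01 for all tested genes), after 34 had already been higher at 80 µM than in untreated cells (median 0.79). Between 80 and 160 µM 34 were higher and 0 lower, and between 160 and 320 µM 26 were higher and 3 lower. CDKN1A, the cyclin-dependent kinase inhibitor p21 that arrests the cycle, had 12.94, 12.77 and 12.92 in the 320 µM arrays, against 11.83, 11.86 and 11.74 in the 80 µM arrays and 10.61, 10.61 and 10.65 in untreated cells. The 3 groups were fully separated and the steps were of like size, 1.18 for the first and 1.07 ± 0.0466 for the second (adjusted p = 5.52e-14). MDM2, the ubiquitin ligase that removes p53, had 13.54, 13.28 and 13.59 in the 320 µM arrays, against 12.42, 12.25 and 12.17 in the 80 µM arrays and 11.29, 11.00 and 11.13 in untreated cells, with steps of 1.14 and 1.19. All 10 of its probe sets were higher at the high dose. GDF15, a secreted stress cytokine, had 12.85, 12.72 and 12.81 in the 320 µM arrays, against 10.05, 10.001 and 9.88 in the 80 µM arrays and 7.54, 7.49 and 7.34 in untreated cells, and made steps of 2.52 and 2.82. TP53I3, an oxidoreductase gene induced by p53, made the larger part of its rise at the low dose, 2.59 against 1.97 for the second step. The reverse held for SERTAD1, a regulator of CDK4 and E2F (0.65 and 2.11), and for E2F7, a repressor of E2F targets (0.59 and 2.02).

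Of the 25 genes that made both steps, the 6 with the largest second step were CYP4F3, LCE1B, GDF15, ATF3, SBF2 and LINC01588. The class also holds the p53 targets TP53I3, TP53INP1, MDM2, CDKN1A, DDB2, SESN1, ZMAT3 and PPM1D, of which TP53INP1, SESN1, ZMAT3 and PPM1D are outside the rule for named genes and were picked out after their values were seen. CYP4F3 had 10.18, 10.31 and 10.46 in the 320 µM arrays, against 6.53, 6.65 and 6.59 in the 80 µM arrays and 4.50, 4.59 and 4.20 in untreated cells. Each dose stood clear of the one below it, with steps of 2.16 and 3.73. The untreated values of CYP4F3 all lay under the signal limit of 6.183, so the size of its first step is uncertain. SBF2 made steps of 2.36 and 2.22 ± 0.229. ITGAM, the integrin alpha M subunit of myeloid cells, was in the same class with 1.20 and 1.5, and DDB2, a damage sensor of nucleotide excision repair, with 1.38 and 1.16.

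**Figure D2:**
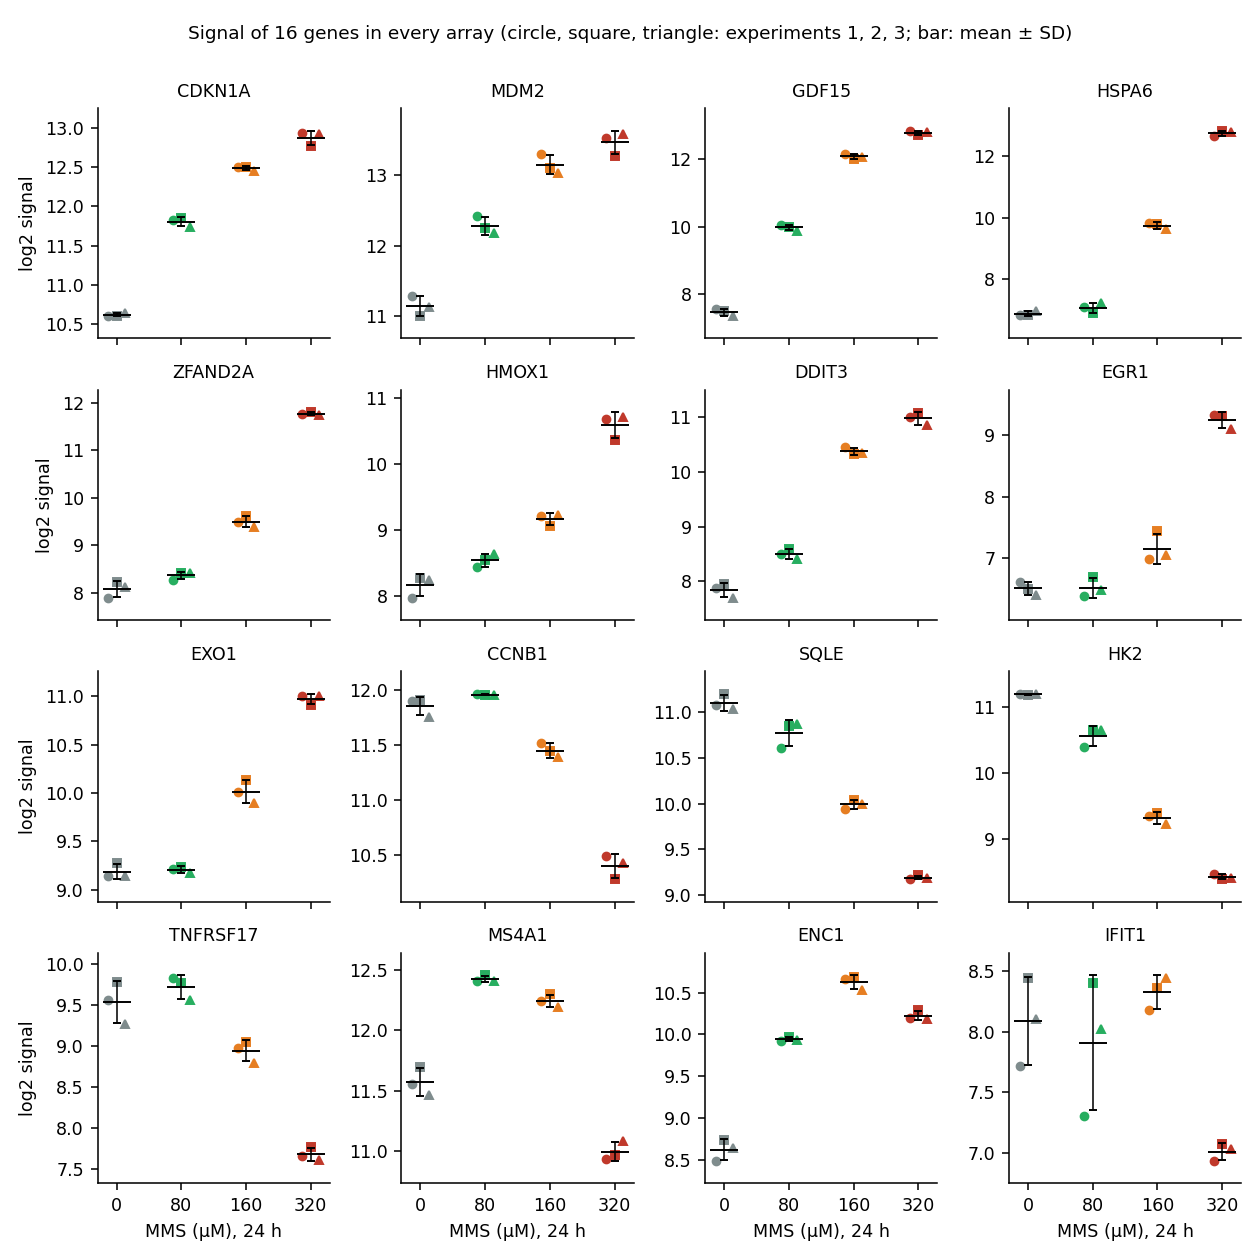
Log2 signal of 16 genes in every array at 0, 80, 160 and 320 µM MMS for 24 h, with circles, squares and triangles for experiments 1, 2 and 3 and the mean ± SD (n = 3) as a bar. CDKN1A, MDM2 and GDF15 climb from the lowest dose on, HSPA6, EGR1, EXO1 and ZFAND2A are within 0.3 of untreated cells at 80 µM and high at 320 µM, CCNB1 and SQLE fall above 80 µM, MS4A1 rises and then falls, and ENC1 is as high at 80 µM as at 320 µM within 0.28.

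The rise of heat shock genes lay above 80 µM and was uneven within the family. Of 20 tested genes 10 (50%) were higher at 320 than at 80 µM and 6 (30%) lower (median 0.16), the latter near the 24.8% over all tested genes. At 80 µM 2 were higher and 4 lower than in untreated cells. HSPA6 was not called at the low dose, with a first step of 0.20 (adjusted p = 0.149), and its signal at 160 µM, 9.81, 9.80 and 9.62, lay between the others. BAG3, the co-chaperone that hands HSP70 clients to autophagy, had 11.22, 11.10 and 11.39 in the 320 µM arrays, against 9.29, 9.21 and 9.30 in the 80 µM arrays (log2 difference 1.97 with SE 0.0732, n = 3 per dose, limma adjusted p = 5.18e-15). Its 80 and 160 µM means, 9.27 and 9.42, were close to the untreated 9.30, so its rise lay between 160 and 320 µM (1.82). DNAJB4, an HSP40 co-chaperone, rose by 1.63 and DEDD2, a death effector protein gene, by 1.5. ZFAND2A, which encodes a proteasome-associated zinc finger protein (AIRAP) induced by arsenite and heat, had 11.76, 11.81 and 11.75 in the 320 µM arrays, against 8.27, 8.41 and 8.42 in the 80 µM arrays (log2 difference 3.41 with SE 0.0705, n = 3 per dose, limma adjusted p = 1.35e-18). The 320 µM arrays were more than 3 log2 units above every 80 µM array, after a first step of 0.29. Adding the ACTB measure to the model, or leaving out experiment 1, left 2 heat shock genes called lower.

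Heat shock factor binds pairs of inverted GAA units, so 2 promoters are shown with these pairs in capitals. They are those of HSPA6, the largest riser, and ZFAND2A, which is outside the heat shock list. Both were picked for display and hold a match, and those of BAG3, DNAJB4 and DEDD2 are not shown. The windows run 5' to 3' from 250 bases before to 50 after the gene start, from RefSeq (GRCh38.p14).
HSPA6 (chr1:161524290-161524589, plus strand): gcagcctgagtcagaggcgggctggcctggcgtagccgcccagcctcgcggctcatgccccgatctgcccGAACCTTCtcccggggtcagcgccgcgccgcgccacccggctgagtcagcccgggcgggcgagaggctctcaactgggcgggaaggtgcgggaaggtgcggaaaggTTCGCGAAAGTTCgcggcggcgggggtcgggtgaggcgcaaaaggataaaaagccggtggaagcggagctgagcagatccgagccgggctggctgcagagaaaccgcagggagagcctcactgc
ZFAND2A (chr7:1160147-1160446, minus strand): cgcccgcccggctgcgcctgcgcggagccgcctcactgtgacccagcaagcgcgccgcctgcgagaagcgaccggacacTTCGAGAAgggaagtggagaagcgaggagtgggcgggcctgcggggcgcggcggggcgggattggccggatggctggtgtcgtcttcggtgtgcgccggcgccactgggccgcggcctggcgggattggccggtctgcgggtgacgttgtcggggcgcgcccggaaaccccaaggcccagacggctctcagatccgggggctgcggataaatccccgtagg
The search was for GAANNTTC and TTCNNGAA, which are each their own reverse complement. HSPA6 has 3 matches, at -180, -74 and -69 from the gene start, the last pair overlapping, and ZFAND2A has 1, at -171. Such a match is in 6 of 18 promoters of the heat shock list (33.3%), in 13.5% of all 35116 promoters and in 10.3% of the 11163 promoters of tested genes. In the 235 promoters of genes that rose only above 80 µM the share was 10.6%. A match is a description of letters only.

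Genes of the ATF4 and amino acid response rose mainly between 80 and 160 µM. Of 27 tested genes 19 were higher at 320 than at 80 µM and 4 lower (median 0.29), after 8 higher and 9 lower at 80 µM. Between 80 and 160 µM 20 were higher and 2 lower, and between 160 and 320 µM 9 were higher and 4 lower. DDIT3, the transcription factor CHOP that promotes death under lasting stress, had 11.02, 11.08 and 10.85 in the 320 µM arrays, against 8.50, 8.58 and 8.41 in the 80 µM arrays (log2 difference 2.49 with SE 0.0733, n = 3 per dose, limma adjusted p = 2.08e-16). It already stood above untreated cells at 80 µM, by 0.66. SLC3A2, the heavy chain of amino acid exchangers, had 11.00, 10.88 and 10.84 in the 320 µM arrays, against 8.71, 8.80 and 8.76 in the 80 µM arrays and 8.90, 9.03 and 9.02 in untreated cells, so it was slightly lower at 80 µM (-0.23) and then rose by 2.15. TRIB3, a pseudokinase that feeds back on ATF4, rose by 1.38 with no call at the low dose (0.13). ATF3 rose in both steps, 1.09 and 2.34. INHBE, an inhibin beta chain induced by CHOP, was highest at the middle dose, with means of 7.39 in untreated cells, 8.18 at 80 µM, 9.41 at 160 µM and 8.57 at 320 µM, and its call between 320 and 80 µM was lost with the ACTB measure. The composite element bound by ATF4 with C/EBP (TGATGNAA on either strand) is in 5 of the 21 promoters of this list (23.8%), against 2.07% of the promoters of tested genes and 3.62% of all promoters. The window of SLC3A2, among the largest risers of the list, holds it on the opposite strand, so that its reverse complement is in capitals here, starting 37 bases after the gene start.
SLC3A2 (chr11:62881449-62881748, plus strand): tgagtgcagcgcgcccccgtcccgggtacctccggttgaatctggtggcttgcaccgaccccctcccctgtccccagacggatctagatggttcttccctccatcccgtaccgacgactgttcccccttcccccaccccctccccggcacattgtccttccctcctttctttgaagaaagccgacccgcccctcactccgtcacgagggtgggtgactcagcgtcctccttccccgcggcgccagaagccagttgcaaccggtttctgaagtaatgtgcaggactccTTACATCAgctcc

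The endoplasmic reticulum branch was near the shares over all tested genes. Of 19 tested unfolded protein response genes 6 were higher and 6 lower at 320 µM (median -0.000215). That is 31.6% each way, against 27.6% higher and 24.8% lower over all tested genes. The sensor gene ERN1 (0.92, in 2 of 3 probe sets) and the co-chaperone DNAJB9 (0.74) rose, and the chaperone HSP90B1 (-0.71) and the disulfide isomerase PDIA6 (-0.69) fell. In the model with the ACTB measure 3 were lower.

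Among genes of NRF2 and thiol defence, which counter electrophiles and oxidants, 10 of 20 were higher and 4 lower (median 0.17). HMOX1, heme oxygenase 1, had 10.69, 10.36 and 10.71 in the 320 µM arrays, against 8.44, 8.55 and 8.64 in the 80 µM arrays (log2 difference 2.05 with SE 0.0907, n = 3 per dose, limma adjusted p = 7e-14). The 320 µM arrays were all well above the 80 µM arrays, which stood only 0.38 above untreated cells. SQSTM1, the autophagy receptor p62, rose by 1.11, although 3 of its 5 probe sets agreed in direction, and GCLM, a subunit of the rate-limiting enzyme of glutathione synthesis, by 0.99, while the glutathione conjugate pump gene ABCC1 fell (-0.59). SLC30A1, the zinc exporter induced through MTF1, was flat at 80 µM (0.02) and had 12.31, 12.35 and 12.31 in the 320 µM arrays, against 10.42, 10.49 and 10.27 in the 80 µM arrays (log2 difference 1.93 with SE 0.0609, n = 3 per dose, limma adjusted p = 4.5e-16). Of the 7 tested genes of metallothioneins and zinc export SLC30A1 was the 1 that rose and 5 fell, all metallothioneins, whose probes can read each other's RNA, with MT1H at -0.40, MT1F at -0.37 and MT1X at -0.34. Adding the ACTB measure left 2 of this list and 1 of the NRF2 list lower, and MT1F and MT1X lost their calls.

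Immediate early genes, among the fastest to answer a signal, were also late in dose. Of 21 tested, 13 were higher and 3 lower at 320 µM (median 0.21), and 12 were higher between 160 and 320 µM against 5 between 80 and 160 µM. Adding the ACTB measure left 6 called higher. EGR1 had 9.32, 9.32 and 9.10 in the 320 µM arrays, against 6.38, 6.70 and 6.49 in the 80 µM arrays (log2 difference 2.72 with SE 0.119, n = 3 per dose, limma adjusted p = 5.81e-14). Its 80 µM arrays overlapped the untreated ones (6.63, 6.51 and 6.40), with a first step of 0.01. JUN, a subunit of AP-1, rose by 1.71 after a first step of 0.09, and FOS, its partner, by 1.34 after -0.16.

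Of the DNA repair genes, MGMT was below the signal limit of 6.183 in all arrays of the 2 doses compared. It had 5.89, 5.92 and 6.04 in the 320 µM arrays, against 6.12, 5.71 and 6.03 in the 80 µM arrays. Its difference of -0.00144 had a 95% interval between -0.19 and 0.18. MGMT was tested because at least 3 arrays elsewhere in the series reached this limit. MPG, the glycosylase for methylated purines, had 8.86, 8.78 and 8.71 in the 320 µM arrays, against 8.95, 8.98 and 8.95 in the 80 µM arrays, a difference of -0.18 (adjusted p = 0.022) that lost its call when experiment 2 or 3 was left out or the ACTB measure was added. In the list of alkylation damage and base excision repair 12 of 22 (55%) were higher and 6 (27%) lower (median 0.21). The lower share was near the 24.8% over all tested genes. ALKBH3, a demethylase of single-stranded DNA, rose by 0.98, the glycosylase gene NEIL3 by 0.96 and PARP2 by 0.88, while PARP1, which binds strand breaks, had 10.56, 10.65 and 10.60 in the 320 µM arrays, against 11.33, 11.35 and 11.28 in the 80 µM arrays and fell (-0.71). Their first steps were small, between -0.14 and 0.25.

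Of 5 mismatch repair genes 2 were higher and 2 lower (1 higher with the ACTB measure). EXO1, the exonuclease that resects mismatched and broken ends, had 11.01, 10.91 and 11.00 in the 320 µM arrays, against 9.22, 9.24 and 9.17 in the 80 µM arrays and 9.14, 9.27 and 9.14 in untreated cells (log2 difference 1.76 with SE 0.0604, n = 3 per dose, limma adjusted p = 1.55e-15). The 80 µM and untreated arrays overlapped and every 320 µM array was far above both. MLH3 fell (-0.85). MSH3 (0.33) and PMS1 (-0.39) were called but turned direction under other settings, so no direction is given for them. In nucleotide excision repair and translesion synthesis 11 of 18 were higher and 2 lower (median 0.35), led by DDB2 (1.16) and the translesion polymerase genes REV3L (0.89) and POLH (0.86), with RAD23B lower (-0.82). The ACTB measure reduced these to 7 higher and 1 lower. In the Fanconi and homologous recombination list 17 of 21 were higher and 2 lower (median 0.47). BRIP1, a helicase that works with BRCA1, had 10.83, 10.60 and 10.80 in the 320 µM arrays, against 9.04, 9.15 and 9.08 in the 80 µM arrays (log2 difference 1.65 with SE 0.0582, n = 3 per dose, limma adjusted p = 2.39e-15), and RAD51AP1 (1.31) and RAD51C (0.79) rose too, whereas FANCF fell (-0.79). Without experiment 2 only 1 gene of the list was lower.

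Genes of DNA replication and of mitosis, which usually rise together in dividing cells, moved apart. Of 34 replication genes 28 were higher at 320 µM and 2 lower (median 0.50; 1 lower with the ACTB measure or without experiment 2), with 14 higher and 2 lower already at 80 µM. TK1, thymidine kinase, had 9.98, 9.93 and 9.84 in the 320 µM arrays, against 8.23, 8.20 and 8.34 in the 80 µM arrays (log2 difference 1.66 with SE 0.0763, n = 3 per dose, limma adjusted p = 1.17e-13). CDC6, which loads the replicative helicase, rose by 1.27, GINS4 by 1.20 and ORC1 by 1.09, but PCNA, the sliding clamp and a p53 target as well, had overlapping arrays (13.81, 13.63 and 13.85 in the 320 µM arrays, against 13.59, 13.64 and 13.61 in the 80 µM arrays) and a difference of 0.15 that lost its call when experiment 1 or 3 was left out and turned in sign, uncalled, with the ACTB measure. Of 14 replication-dependent histone genes, which are made in S phase and resemble each other in sequence, 12 were higher and 0 lower (median 0.60), after 0 higher and 4 lower at 80 µM. H3C2 rose by 1.51, H2AC8 by 1.40, H2AC6 by 1.17 and H2BC12 by 0.97. Of the 14, 7 were higher in the model with the ACTB measure.

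Most mitosis genes fell above 80 µM. At 320 µM 23 of 36 were lower and 9 higher (median -0.44), whereas at 80 µM 14 were higher than in untreated cells and 0 lower. CCNB1, cyclin B1, which drives entry into mitosis, had 10.49, 10.28 and 10.43 in the 320 µM arrays, against 11.97, 11.96 and 11.95 in the 80 µM arrays and 11.90, 11.90 and 11.76 in untreated cells (log2 difference -1.56 with SE 0.0551, n = 3 per dose, limma adjusted p = 2.46e-15). The 80 µM arrays lay just above the untreated ones and the 320 µM arrays more than a log2 unit below both. The kinase gene AURKA (-1.19), the activator of the anaphase-promoting complex CDC20 (-1.18) and the checkpoint kinase gene BUB1 (-1.06) fell likewise. In such bulk samples fewer cells in a phase and less RNA per cell cannot be told apart. Adding the ACTB measure left 5 mitosis genes called higher. Promoters of mitosis genes commonly carry CCAAT boxes bound by NF-Y and a cell cycle homology region, TTTGAA or TTTAAA, and the CCNB1 window is shown with both in capitals, the boxes at -87 and -55 and the region at -30.
CCNB1 (chr5:69166900-69167199, plus strand): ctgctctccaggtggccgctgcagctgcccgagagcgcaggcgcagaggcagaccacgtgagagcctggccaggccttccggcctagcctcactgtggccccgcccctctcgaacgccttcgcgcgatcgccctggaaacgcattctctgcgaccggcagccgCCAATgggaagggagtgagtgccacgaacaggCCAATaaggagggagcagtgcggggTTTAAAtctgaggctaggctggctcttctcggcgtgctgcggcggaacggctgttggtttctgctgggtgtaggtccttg
On either strand CCAAT is in 25 of 31 promoters of the mitosis list (80.6%), against 36.3% of the promoters of tested genes and 34.6% of all promoters. The homology region is in 24 of the 31 (77.4%), against 16.7% and 24%. TTTAAA reads the same on both strands, and both motifs are short enough to occur often in any window of this length.

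Cholesterol synthesis genes fell together above 80 µM. Of 16 tested, 14 were lower at 320 µM and 0 higher (median -0.65), with 1 lower and 0 higher at 80 µM. SQLE, squalene epoxidase, had 9.18, 9.22 and 9.19 in the 320 µM arrays, against 10.61, 10.85 and 10.87 in the 80 µM arrays and 11.08, 11.20 and 11.04 in untreated cells (log2 difference -1.58 with SE 0.0655, n = 3 per dose, limma adjusted p = 2.31e-14). The doses did not overlap, and the first step was -0.33. HMGCS1 (-1.48), which makes the precursor of mevalonate, DHCR7 (-1.47) and MSMO1 (-1.31), enzymes of the later pathway, fell too. Between 80 and 160 µM 12 of the 16 were lower and between 160 and 320 µM 9. The sterol response element searched for, TCACNCCAC on either strand, is in 1 of 14 promoters of the list (7.14%) against 1.07% of the promoters of tested genes. The interferon response and immediate early lists also have it in 1 of 14 promoters each (7.14%), so this share is not particular to the cholesterol list.

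Most hypoxia and glycolysis genes fell above 80 µM. Of 28 tested, 23 were lower at 320 than at 80 µM and 2 higher (median -0.51), after 9 lower and 0 higher at 80 µM. HK2, which traps glucose in the cell, had 8.47, 8.39 and 8.41 in the 320 µM arrays, against 10.39, 10.66 and 10.65 in the 80 µM arrays and 11.19, 11.18 and 11.20 in untreated cells, with steps of -0.63 and -2.14 ± 0.061 (adjusted p = 1.17e-16). PDK1, a pyruvate dehydrogenase kinase gene (-1.10), PFKFB4 (-1.05) and ALDOC (-0.88) fell as well. In the model with the ACTB measure 0 were higher. Most of this list's fall lay between 80 and 160 µM, with 21 lower there and 10 lower between 160 and 320 µM.

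Nearly all MYC-driven genes of ribosome making were already lower at the low dose. At 80 µM 18 of 19 were lower than in untreated cells and 0 higher (median -0.33), and 13 were lower at 320 than at 80 µM with 1 higher (0 without experiment 1 or with the ACTB measure; median -0.41). NOP16 had 10.37, 10.44 and 10.45 in the 320 µM arrays, against 11.56, 11.49 and 11.50 in the 80 µM arrays and 12.03, 12.09 and 12.02 in untreated cells, with steps of -0.53 and -1.10, and 3 of its 4 probe sets fell. RRS1 (-0.70), MRTO4 (-0.64) and WDR12 (-0.56), all of large subunit assembly, fell too. Between 80 and 160 µM 16 of the 19 were lower and 0 higher, and between 160 and 320 µM 4 were higher and 4 lower. The latter counts were near the shares over all tested genes, 22.6% higher and 17.4% lower. Cytosolic ribosomal protein genes hardly moved: 3 of 29 were higher and 1 lower (median 0.02), with the ACTB measure 0 were called, and with 1 experiment left out 0 or 1 were higher and 0 lower. RPS19 (0.13), RPS3 (0.11), RPL18 (0.09) and RPL24 (-0.09) were called, and each lost its call under at least 1 other setting.

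**Figure D3:**
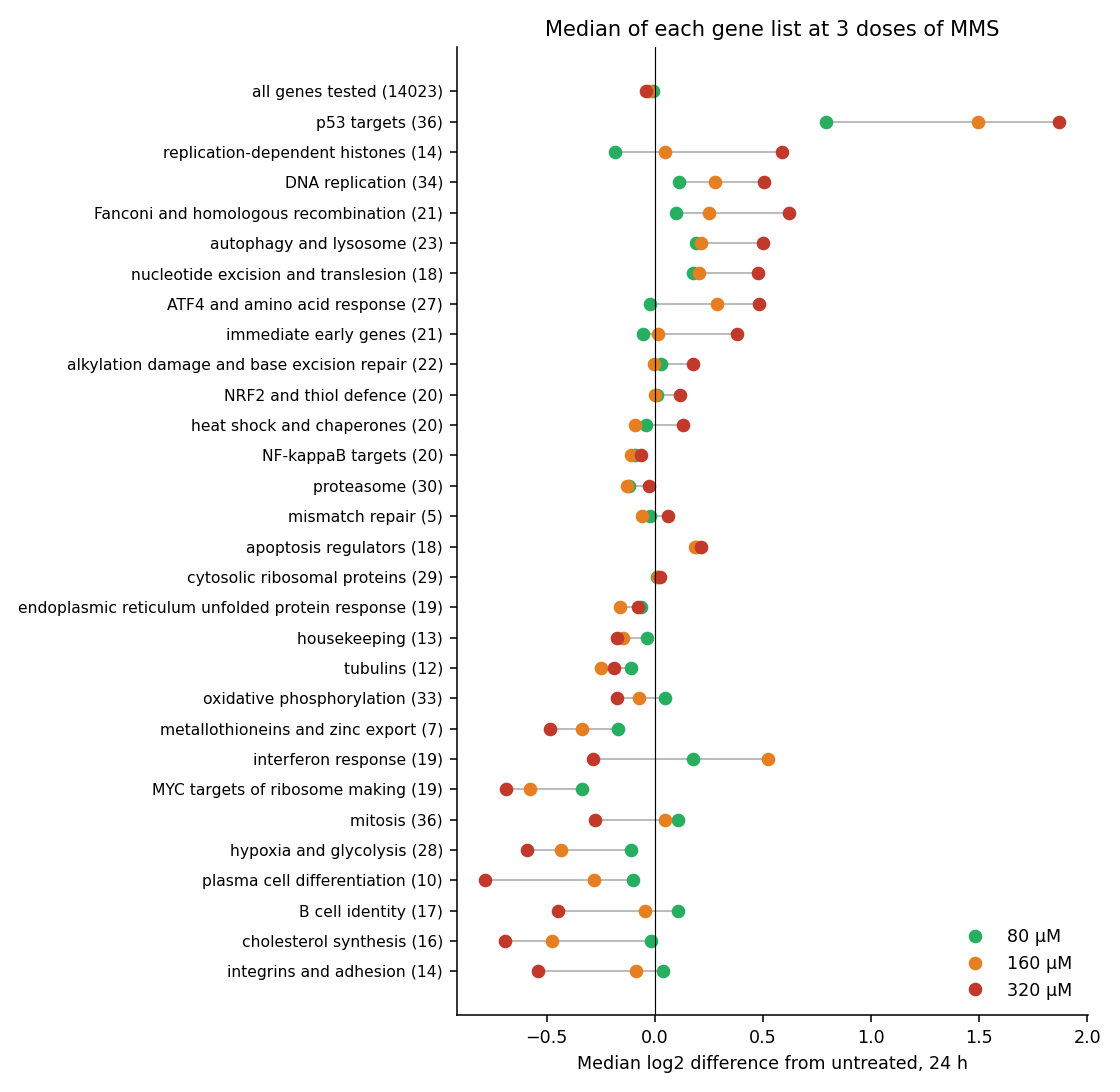
Median log2 difference from untreated cells at 24 h of each gene list at 80, 160 and 320 µM, ordered by the median of 320 minus 80 µM, with the number of tested genes in brackets and all tested genes at the top. The p53 targets lie far to the right at every dose, MYC targets of ribosome making lie to the left at every dose, and interferon response genes lie to the right at 160 µM (0.52) and to the left at 320 µM (-0.28).

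B cell genes fell above 80 µM. Of 17 B cell identity genes 14 were lower at 320 than at 80 µM and 0 higher (median -0.64), whereas 4 were higher and 0 lower at 80 µM. MS4A1, the surface antigen CD20, had 10.93, 10.96 and 11.08 in the 320 µM arrays, against 12.41, 12.46 and 12.41 in the 80 µM arrays and 11.55, 11.70 and 11.46 in untreated cells. It stood above untreated cells at the low dose (0.86) and below them at the high dose (-0.58), a second step of -1.43 ± 0.0678 (adjusted p = 1.77e-13). The IgE receptor gene FCER2 (-1.33), the inhibitory receptor gene CD22 (-1.06) and EBF1, a factor that sets B cell fate (-0.86), fell likewise. In the model with the ACTB measure 9 were lower. Of 10 plasma cell genes 5 were lower and 0 higher (2 higher without experiment 2). TNFRSF17, which encodes the receptor BCMA, had 7.65, 7.77 and 7.61 in the 320 µM arrays, against 9.82, 9.77 and 9.55 in the 80 µM arrays (log2 difference -2.04 with SE 0.148, n = 3 per dose, limma adjusted p = 1.54e-10). MZB1 (-1.85), CD38 (-1.24) and the immunoglobulin heavy chain gene IGHM (-1.24) fell too, but with the ACTB measure IGHM was at -0.52 and not called. Of 14 integrin and adhesion genes 8 were lower and 3 higher. The subunit genes ITGA4 (-1.70), ITGB7 (-1.37) and ITGAL (-1.36) fell and ITGAM rose, as given above.

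Interferon response genes had their highest median at the middle dose. Of 19 tested, 7 were higher and 0 lower at 160 than at 80 µM, and 0 were higher and 12 lower at 320 than at 160 µM, which left 2 higher and 8 lower at 320 than at 80 µM (median -0.41). MX2, an antiviral GTPase, had 7.81, 7.93 and 7.79 in the 320 µM arrays, against 8.64, 8.96 and 8.94 in the 80 µM arrays (log2 difference -1.01 with SE 0.0962, n = 3 per dose, limma adjusted p = 1.06e-08), and OAS2, which makes the signal for RNase L, fell by 0.95 on the log2 scale. IFIT1, which binds viral RNA, had 6.93, 7.07 and 7.03 in the 320 µM arrays, against 7.31, 8.40 and 8.02 in the 80 µM arrays and 8.18, 8.36 and 8.45 at 160 µM. Its 80 µM arrays were spread over more than a log2 unit, with experiment 1 lowest, and the 320 µM arrays lay below all of them. IRF7, a transcription factor of the interferon genes, went the other way (0.84). IFI44L, one of the genes named for the comparison with EMS, had 7.70, 7.28 and 7.82 in the 320 µM arrays, against 7.51, 8.60 and 8.45 in the 80 µM arrays, was not called (adjusted p = 0.0812), and was called at -0.97 without experiment 1. Of the list 4 were lower with the ACTB measure and 5 without experiment 3, and IFIT1 lost its call with the measure.

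Turned genes were few at 2-fold size. DTNB-AS1 had 6.54, 6.45 and 6.54 in the 320 µM arrays, against 7.98, 8.01 and 7.82 in the 80 µM arrays and 6.69, 6.96 and 6.92 in untreated cells. GABRP, a GABA receptor subunit gene, had 8.01, 7.66 and 7.98 in the 320 µM arrays, against 9.07, 9.17 and 9.22 in the 80 µM arrays and 8.07, 8.22 and 8.15 in untreated cells. In both the 80 µM arrays stood above the untreated and the 320 µM arrays. TMT1A, a thiol methyltransferase gene, made steps of 1.15 and -1.39, but only 2 of its 4 probe sets went down in the second.

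The remaining lists were mixed or moved slightly. Apoptosis regulators divided, 7 higher and 7 lower of 18, with APAF1 (1.07), BAK1 (0.96) and the death receptor FAS (0.96) higher and the survival gene BCL2A1 lower (-1.36). FAS and APAF1 are also p53 targets, and both had risen at 80 µM (0.66 and 0.86). Adding the ACTB measure left 4 lower. Of 20 NF-kappaB targets 9 (45%) were higher and 6 (30%) lower, the latter near the 24.8% over all tested genes (3 higher with the ACTB measure). The chemokine genes CXCL10 (-1.34), CCL22 (-0.83) and CCL4 (-0.80) fell and the subunit gene RELB rose (0.74). Of 23 autophagy and lysosome genes 14 were higher and 5 lower (median 0.41), with MAP1LC3B, the autophagosome marker LC3B (1.30), the sialidase gene NEU1 (1.08) and LAMP1 (0.84) among the risers. Proteasome genes had more lower calls in the first step and more higher calls in the second: 15 of 30 were lower and 1 higher at 80 µM, and 17 were higher and 5 lower at 320 than at 80 µM, led by the ATPase subunits PSMC2 (0.75), PSMC3 (0.70) and PSMC4 (0.53) and by PSMD3 (0.51). Against untreated cells 7 were higher and 8 lower at 320 µM (median -0.03). The ACTB measure left 11 proteasome genes higher and 1 lower, and leaving out experiment 1 left 9 higher. Genes of oxidative phosphorylation were slightly lower, 19 of 33 with 4 higher (median -0.15), such as NDUFA1 (-0.62), COX5B (-0.62) and NDUFV2 (-0.56), with 9 lower once the ACTB measure was added. Tubulin genes had 3 higher and 7 lower of 12, and housekeeping genes 2 higher and 7 lower of 13. TUBB2A (-0.66) and TUBA1A (-0.49) fell, while TUBE1 (0.54) and TUBG1 (0.39) rose, TUBE1 only without the ACTB measure, with which it was at 0.16 and not called. PGK1 (-0.74) and HPRT1 (-0.40), often used as references for other genes, fell, and GUSB (0.85) and SDHA (0.46) rose. The model with the ACTB measure had 3 tubulin genes and 4 housekeeping genes lower and 1 tubulin gene higher.

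**Figure D4:**
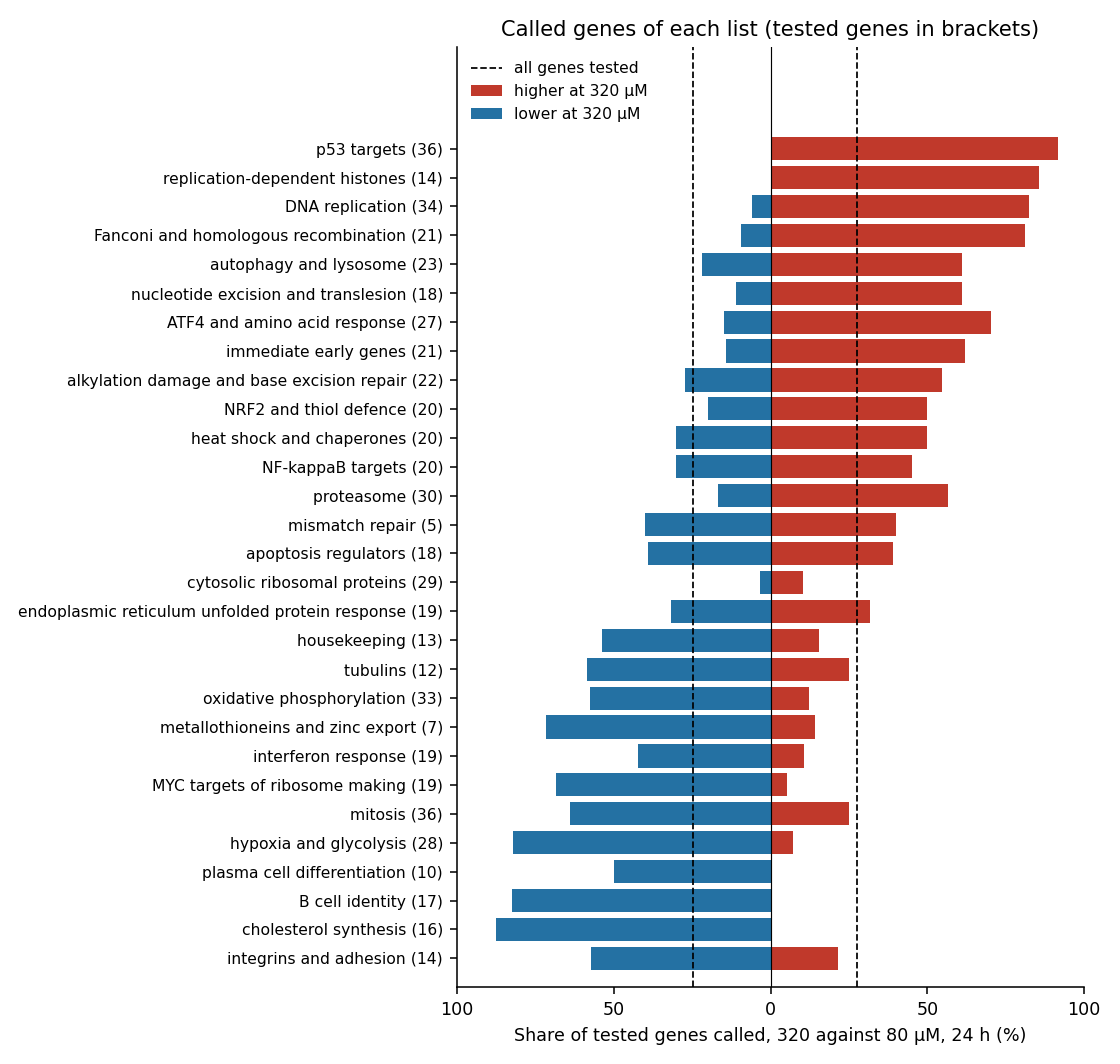
Share of the tested genes of each list called higher (red, to the right) or lower (blue, to the left) at 320 than at 80 µM, in percent, with the number of tested genes in brackets and the shares over all tested genes as dashed lines (27.6% and 24.8%). The p53 targets (33 of 36) and histones (12 of 14) reach furthest right, and cholesterol synthesis (14 of 16) and B cell identity (14 of 17) reach furthest left.

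The same dose step was set beside groups whose means did not enter the classes, though all 24 MMS arrays share an estimate of the spread. At 4 h 1399 genes were higher at 320 than at 80 µM MMS (9.98% of those tested) and 1046 lower (7.46%), with 20 and 4 at least 2-fold. Of the 285 genes that rose only above 80 µM at 24 h, 153 were also higher at 4 h and 5 lower (median 0.22). Of the 183 that fell, 98 were lower at 4 h and 2 higher (median -0.25). The doses differed in HMOX1 by 2.05 at 24 h and 2.03 at 4 h, and in HSPA6 by 5.65 at 24 h and 1.57 at 4 h. The p53 targets had 23 of 36 higher and 0 lower at 4 h, with a median of 0.98 at 24 h and 0.24 at 4 h. The ATF4 list had 25 of 27 higher and 0 lower at 4 h, with a median of 0.29 at 24 h and 0.67 at 4 h. The difference between the times was tested for each gene: the step was higher at 24 h for 2877 genes (20.5%) and lower for 2677 (19.1%), and with the ACTB measure it was higher for 1823. The ACTB measure differed by 0.0862 between the doses at 4 h (exact p = 0.2).

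For EMS the step between 4 and 1 mM was also 4-fold, but the doses themselves differ from those of MMS and were not matched, so sizes are given side by side. At 24 h 3007 genes were higher at 4 than at 1 mM (21.4%) and 2976 lower (21.2%), with 148 and 49 at least 2-fold. Of the 285 genes that rose only above 80 µM MMS, 274 were higher at 4 mM EMS and 0 lower, with a median of 0.62. Of the 183 that fell, 181 were lower and 0 higher, with a median of -0.73. All 25 genes that rose in both MMS steps were higher at 4 mM EMS (median 1.63 on the log2 scale), and 7 of the 9 that were full at 80 µM were higher and 0 lower. HSPA6 differed by 5.65 between the MMS doses, against 0.43 between the EMS doses, and BAG3 by 1.97, against 0.09 (adjusted p = 0.298). GDF15 differed by 2.82 for MMS and 2.86 for EMS, and DDIT3 by 2.49 and 2.71. The test of the difference between the chemicals' steps called 2081 genes higher for MMS (14.8%) and 1695 lower (12.1%), and 1197 and 1076 without experiment 1. Without experiment 3 it called 1366 higher. The ACTB measure was 0.664 ± 0.0342 at 4 mM and 0.535 ± 0.0137 at 1 mM EMS (SD, n = 3 each), a difference of 0.129.

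**Figure D5:**
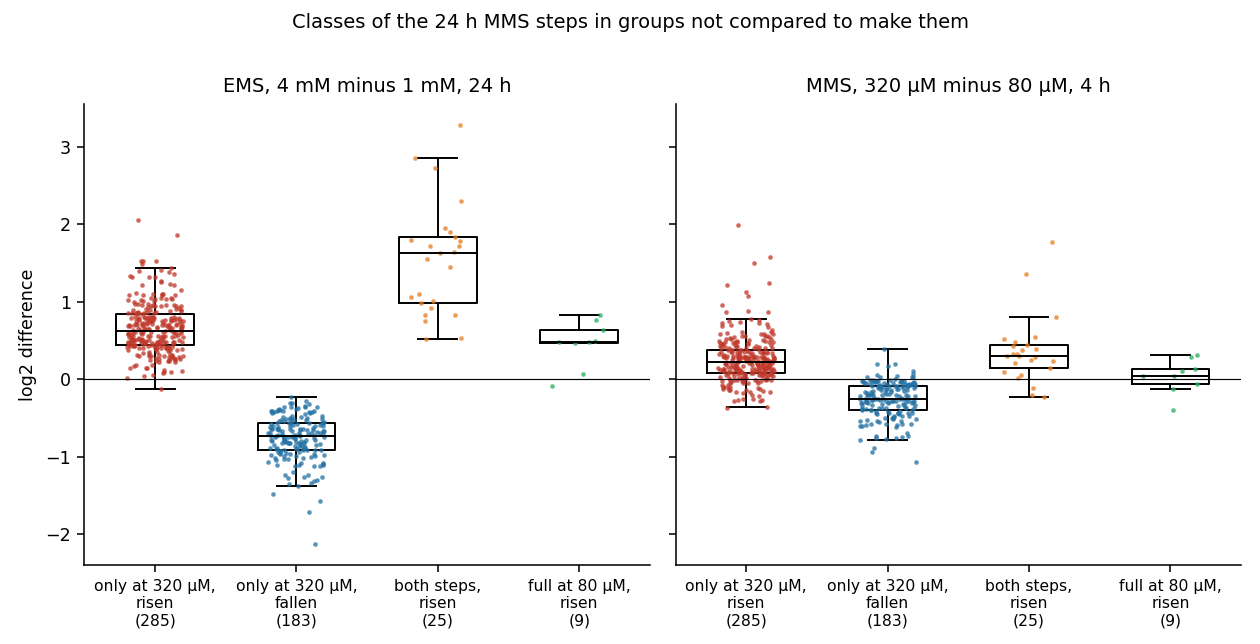
Log2 differences of the genes in 4 classes in EMS-treated cells (4 minus 1 mM, 24 h, left) and in MMS-treated cells at 4 h (320 minus 80 µM, right), with 1 point per gene, the median as a line, quartiles as a box, whiskers to the last gene within 1.5 times the box and the number of genes in brackets. In EMS nearly all of the 285 genes lie above 0 (median 0.62) and all of the 183 below it (median -0.73), and at 4 h both classes lie closer to 0.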

How the data were processed

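Values are deposited log2 expression values per probe set from Affymetrix HG-U133 Plus 2 arrays, which the authors computed by RMA, per the submitters' processing notes; the sources used here give neither its version nor its software, and do not say if the 120 arrays were normalized jointly. Array medians of the 24 MMS arrays lay between 6.133 and 6.224, and precision is limited by how few arrays each group has. Of 54675 probe sets, 62 are controls, 41091 name 1 gene symbol, 1801 several and 11721 none. The brightest probe set by mean stood for each of 19775 genes, of which 14023 with at least 3 arrays at 6.183 (the median probe set mean) were tested.

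The 24 MMS arrays were fitted as 8 group means with limma 3.58.1 (R 4.3.3), with no block. The EMS comparison used 48 arrays. Tests are two-sided, with Benjamini-Hochberg adjustment over the 14023 genes. Exact permutation tests, motif searches and figures used python 3.11.15, and the packages were scipy 1.17.1 for tests, pandas 2.3.3 and numpy 2.4.6 for tables, and matplotlib 3.10.9 for drawing. Scripts were tested on simulated data.

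The comparison, the gene lists and the panel were chosen with earlier results of these data known, and the lists come from general knowledge; some genes stand in several. Named genes are the 12 highest and 12 lowest called differences with 1 direction in all 3 experiments, the 6 largest steps of each class, up to 4 called genes per list, the 5 largest differences each way between times and chemicals, and the panel CDKN1A, MDM2, GDF15, TP53I3, HSPA6, DNAJB4, HMOX1, ATF3, DDIT3, CCNB1, TK1, PCNA, MGMT, MPG, HK2 and SQLE. Alternatives were a replicate block, other filters, the mean of probe sets, repeated quantile normalization, other sets of arrays, a variance trend, the ACTB measure as a covariate, each experiment left out, and other class limits.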

Additional observations from a re-analysis of the deposited data

Results flagged for a closer look

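The step of 320 over 80 µM MMS differed between 24 h and 4 h, by the test of that difference in limma, most for these genes among those called. The 24 h step was larger upward by 4.08 for HSPA6, 4.29 for CYP4F2, 4.03 for KRTAP19-1, 3.40 for CYP4F3 and 2.84 for HSFX3. It was lower by a difference of -2.23 for HBD, -1.95 for GIMAP8, -1.94 for ERICH3, -1.90 for CHL1 and -1.90 for TNFRSF17. HSFX3, a gene related to heat shock factors, had a step of 2.48 at 24 h and -0.36 at 4 h. GIMAP8, a GTPase gene of lymphocytes, had -1.56 at 24 h and 0.39 at 4 h, and 1 of its 2 probe sets did not share the 24 h direction. The ERICH3 value is uncertain in size, because its 320 µM arrays at 24 h lay under the signal limit of 6.183.

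The 4-fold step of MMS (320 over 80 µM) and that of EMS (4 over 1 mM) at 24 h also differed by the test of the difference, at doses that were not matched. The MMS step was higher by 5.22 for HSPA6, 3.23 for KRTAP19-1, 2.39 for ZFAND2A, 1.94 for GADD45B and 1.93 for CYP4F2. It was lower by a difference of -2.01 for INHBE, -1.27 for IFI44L, -1.21 for IFIT1, -1.20 for TNFSF10 and -1.19 for IFNG. GADD45B, a stress gene that activates p38 signalling, was 1.48 higher at 320 than at 80 µM MMS and -0.46 at 4 against 1 mM EMS. TNFSF10, the death ligand TRAIL, was -1.06 for MMS and 0.14 for EMS, and IFNG, interferon gamma, -0.39 and 0.79. The MMS value of IFNG lost its call without experiment 2 or 3 and with the ACTB measure (-0.60), and that of INHBE (0.39) with the ACTB measure (0.27).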

How the results depend on the processing

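Of 160 called named genes 137 kept direction and call in every alternative. With the ACTB measure as a covariate 22 lost the call or turned, and 14 did so in any other setting. That covariate left 2192 genes higher and 2150 lower at 320 than at 80 µM, 3026 called between 320 and 160 µM, 1823 with a higher step at 24 h than at 4 h and 2 full at 80 µM. MSH3 (-0.14), PCNA (-0.13) and S100A8 (0.0792) turned in sign with it, without a call. With the mean of probe sets (12384 genes) PMS1 turned (0.12), 152 genes were at least 2-fold lower, and the classes held 5 full at 80 µM, 104 fallen only at 320 µM and 13 risen in both steps. With a step of 1.5-fold the classes held 96 risen and 6 fallen fully at 80 µM, 996 risen and 791 fallen only at 320 µM, 114 risen and 7 fallen in both steps, and 39 turned. With absence bounded at 0.3 they held 2, 134 and 98 (full, risen only and fallen only at 320 µM). GAPDH in place of ACTB gave a difference in RNA quality of 0.131. The cause of these shifts was not tested. With 1 experiment left out, genes higher at 320 µM numbered 3102 to 3795 and lower 2899 to 3317; those called between 160 and 80 µM numbered 2483 to 3332, and steps that differed from EMS 1197 to 1787 higher and 1076 to 1306 lower, where the lowest of these last 3 counts were those without experiment 1.

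Between the 320 and 80 µM arrays at 24 h, deviations of arrays with the same experiment number correlated at -0.166 to 0.0431 (mean -0.081). The mean was 0.0404 for other numbers, and the other MMS groups were not checked in this way. With experiment as a block over all MMS arrays 3980 genes were higher and 3620 lower, against 3871 and 3473 without it. Repeated quantile normalization gave 3774 higher and 3819 lower.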
